A study of Mus musculus with 6 samples.

Results

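Neuroblasts and their dividing precursors were examined in nuclei of mouse striatum. A nucleus was taken when its deposited values of Sox11, Igfbpl1 and Dlx2 summed to at least 4, with Rgs9 + Pde10a of at most 5, and Slc17a7, Pdgfra + Cspg4 and Mog + Mag of at most 1 each. These limits were set to leave out medium spiny neurons, glutamatergic neurons, oligodendrocyte precursors and oligodendrocytes, by these marker genes alone. Nuclei were thus chosen by measured values of the genes in the rule, which found 280 of 48834 nuclei (0.573%). The nuclei came from frozen striatum of 3 wild-type and 3 Celsr3 heterozygous mouse samples, given in the labels as biological replicates, with a separate 10x Genomics 3′ library for each and all 6 sequenced on a shared lane. Celsr3 encodes a seven-pass cadherin of the planar cell polarity pathway. The labels used here give no age, sex, strain, type of Celsr3 allele or preparation batch, and do not say whether tissue of several animals was pooled. P-values therefore measure the spread between these samples.

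In the adult rodent brain, new neurons arise from astrocyte-like stem cells in the wall of the lateral ventricle, which borders the striatum. Activated stem cells give rise to transit-amplifying cells with Egfr, which divide and form neuroblasts with Dlx genes, Sox11 and Dcx. Neuroblasts still divide while they migrate in chains to the olfactory bulb, where they become mostly GABAergic interneurons. How much of the ventricular wall enters a striatal dissection is not recorded in the labels.

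Each value was read as a molecule number that had been corrected for depth and then rounded, so the raw depth of each nucleus is unknown. Neuroblast and precursor nuclei had fewer detected genes than the average nucleus in every library, with medians of 2074 to 2510 against 2456 to 3011 over all nuclei. Across libraries 274 barcodes were shared; 8 of the 280 nuclei carried such a barcode, and no barcode was shared between 2 of them. Their Scrublet doublet score was above 0.25 in 1 nucleus (0.357%), against 1.45% of all nuclei.

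Of the 3 genes in the rule, Sox11, a transcription factor of immature neurons, had a value in 86.8% of the 280 nuclei. Igfbpl1, a secreted protein of newborn neurons, had one in 80.7%, and Dlx2, a homeobox factor of GABAergic progenitors, in 26.1%. All 3 genes were present in 50 nuclei, 2 of them in 162 and 1 in 68. The summed value had a median of 6 and reached 28. At the edge of the rule, 85 nuclei had a sum of 4 and 147 otherwise eligible nuclei had a sum of 3. Mean Dcx was 1.98 at a sum of 4 and 1.35 at a sum of 3, mean Sox4 was 1.46 and 0.490, and mean Top2a was 1.29 and 0.333. Another 202 nuclei reached the sum but failed a limit, 119 of them on Rgs9 + Pde10a and 80 on Mog + Mag. At a limit of 2 for Rgs9 + Pde10a, 18, 12 and 24 wild-type and 9, 24 and 40 heterozygous nuclei remained per library.

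Dcx, a microtubule-binding protein of migrating neurons that the rule did not use, was present in 207 of the 280 nuclei (73.9%), against 22.6% of all other nuclei. All 13 listed neuroblast markers were at least 2-fold higher in the 280 nuclei than in the rest, where 8.62% of all genes compared were at least 2-fold higher and 21.2% at least 2-fold lower. Sox11, Igfbpl1 and Dlx2 are among the 13, and this contrast comes from the same nuclei as the rule. These levels therefore describe the population and test nothing. The 9 astrocyte and stem cell markers summed to 9.63 in the 280 nuclei and 12.4 in the others, the 10 medium spiny neuron markers to 9.95 and 26.4, and the 6 oligodendrocyte markers to 15.6 and 31.3. The medium spiny neuron markers hold Rgs9 and Pde10a and the oligodendrocyte markers Mog and Mag, so the rule partly set those sums.

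Most neurogenic transcription factors were high: 20 of 26, among them the rule genes Sox11 and Dlx2, were at least 2-fold higher than in the other nuclei. Meis2, a factor of olfactory bulb interneuron formation, averaged 26.0 per nucleus, against 9.01 in medium spiny neurons and 6.11 in other GABAergic neurons. Sox4, the close relative of Sox11, averaged 2.10 against 0.123 in all other nuclei, and Dlx1, the neighbour and partner of Dlx2, 1.24 against 0.0434. Sp8, a factor of olfactory interneurons, averaged 0.257 against 0.00719. Factors of glutamatergic lineages had low means and went both ways. Neurod1 averaged 0.00357 and Neurod2 0.0143, against 0.00655 and 0.0480 in all other nuclei, while Eomes averaged 0.0393 against 0.00249. Eomes had a value in 2.50% of the 280 nuclei, in heterozygous libraries 1 and 3 alone, and averaged 0.233 in sub-cluster 5, one of the groups described below.

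Genes of migration and the cytoskeleton were also high, with 15 of 20, among them the rule gene Igfbpl1, at least 2-fold above the other nuclei. Ncam1, the adhesion molecule that carries polysialic acid on migrating neuroblasts, averaged 13.0 against 4.89, and St8sia2, an enzyme that adds the polysialic acid, 0.675 against 0.109. The microtubule genes Stmn2, Tubb3 and Tubb2b averaged 2.60, 1.59 and 0.886, against 0.678, 0.430 and 0.145. Dab1, the intracellular adaptor of reelin signalling, went the other way at 3.04 against 5.40.

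Of the 26 guidance genes, 11 were at least 2-fold higher and 5 at least 2-fold lower, the latter near the share of 21.2% over all genes. Erbb4, a neuregulin receptor, averaged 25.9 in the 280 nuclei, 20.8 in other GABAergic neurons and 5.21 in medium spiny neurons. Its ligand gene Nrg1 was lower than in medium spiny neurons, at 9.92 against 30.3. Slit1, which encodes a repellent that migrating neuroblasts secrete, averaged 1.30 against 0.168 in all other nuclei, and the receptor gene Robo2 13.2 against 5.13. Prokr2, the prokineticin receptor, averaged 0.139 against 0.0110.

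In the planar cell polarity list, 4 of 15 genes were at least 2-fold higher and 3 at least 2-fold lower, again near 21.2% for the lower ones. Fzd3, the frizzled receptor that acts with Celsr3 in axon tracts, averaged 1.10 against 0.479, and Vangl2, a core membrane component, 0.196 against 0.0649. Celsr3 itself averaged 0.121 in these nuclei, 0.103 in medium spiny neurons and 0.112 in other GABAergic neurons. Celsr1 averaged 0.193 in astrocytes and 0.0750 in the 280 nuclei, and 0.0190 or less in the other 3 populations compared, which did not include ependymal or choroid plexus nuclei.

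**Figure D1:**
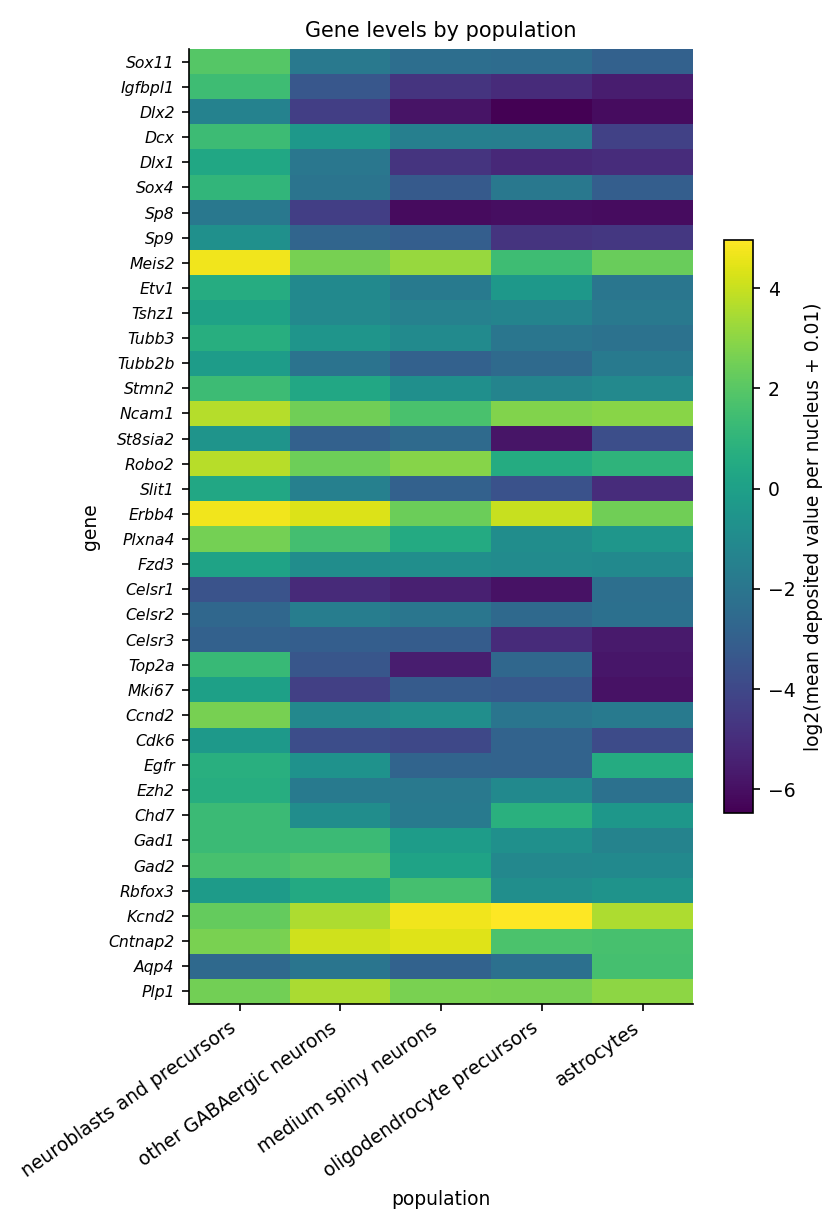
Mean level of selected genes (rows) in the 280 neuroblast and precursor nuclei and in 4 other populations set by marker sums (columns), as log2 of the mean deposited value per nucleus plus 0.01. The genes from Sox11 to Sp9 are brightest in the first column, and Kcnd2 and Cntnap2 are dimmer there than in medium spiny neurons. Sox11, Igfbpl1 and Dlx2 chose the nuclei of the first column, so the brightness of these rule genes there follows from the rule and tests nothing. The limits on the marker sums of the other populations are not given here.

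Dividing nuclei were taken as those whose 20 mitosis genes summed to at least 3. They numbered 97 of 280 (34.6%), against 7.56% of the other nuclei. In those other nuclei Anln alone gave 0.358 of the mean list sum of 0.760, and it was the 1 listed gene that was not at least 2-fold higher in the 280 nuclei. Of the 280, 23 lay at a sum of 2 or 3, next to the limit. Top2a, the topoisomerase that untangles DNA before division, had the largest ratio to the other nuclei of any gene with a mean of at least 0.5, at 96.7-fold. Of the mitosis genes 19 of 20 were at least 2-fold higher, and of the 25 replication genes all were. Mki67, a coat protein of mitotic chromosomes, averaged 2.86 in dividing nuclei and 0.00676 in astrocytes; it is one of the 20 genes that chose the dividing nuclei, so this level only describes them. Dcx was present in 73.2% of the dividing nuclei and 74.3% of the others.

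Egfr, the receptor of epidermal growth factor, averaged 3.60 in dividing nuclei and 1.45 in astrocytes, which also express it. Cdk6, a kinase of cell cycle entry, averaged 1.92 in dividing nuclei and 0.0592 in astrocytes. Of the sub-clusters described below, sub-cluster 1 had the highest Top2a mean, with Egfr at 0.750 and Cdk6 at 0.625. In sub-cluster 6 they averaged 9.77 and 4.27.

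The stretch of 120 bases before the start site is shown for 4 of the cell cycle genes, because short shared motifs occur in the promoters of genes of one cycle phase. The motifs are the cell cycle homology region TTTGAA and its variant TTCGAA, the CCAAT box and the E2F sites TTTGGCGC and TTTCCCGC, searched on both strands; capitals mark matches, also where the reverse strand matches. Sequences are RefSeq's, on build GRCm38.p6, written 5′ to 3′ along the gene's strand. These 4 genes were picked, after the matches were seen, because matches fall within this stretch.
Top2a, chr11:99024190-99024309, minus strand: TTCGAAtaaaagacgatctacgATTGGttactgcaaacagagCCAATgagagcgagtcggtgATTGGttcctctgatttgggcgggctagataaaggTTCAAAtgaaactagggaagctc
Kif11, chr19:37376262-37376381, plus strand: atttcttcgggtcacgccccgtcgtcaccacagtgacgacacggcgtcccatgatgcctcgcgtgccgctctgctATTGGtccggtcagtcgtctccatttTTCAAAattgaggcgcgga
Mki67, chr7:135716380-135716499, minus strand: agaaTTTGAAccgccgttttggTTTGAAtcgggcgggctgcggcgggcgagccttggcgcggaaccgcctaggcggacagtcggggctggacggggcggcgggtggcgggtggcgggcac
Mcm6, chr1:128359706-128359825, minus strand: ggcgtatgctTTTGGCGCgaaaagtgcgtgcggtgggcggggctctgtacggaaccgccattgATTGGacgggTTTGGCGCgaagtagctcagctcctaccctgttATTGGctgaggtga

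Top2a, Kif11 (a spindle motor) and Mki67 belong to the mitosis list and Mcm6 (a subunit of the replicative helicase) to the replication list. Over the whole window of 300 bases, TTTGAA was found in 15 of the 18 mitosis genes matched in the promoter table (83.3%), in 3 of 21 matched replication genes (14.3%) and in 20.2% of all genes. TTTGGCGC was found in 7 of 21 replication genes (33.3%), in 1 mitosis gene (5.56%) and in 0.585% of all genes. TTTCCCGC was in 5 replication genes (23.8%), in 0 mitosis genes and in 1.24% of all genes. CCAAT was common everywhere, in 77.8% of mitosis, 66.7% of replication and 41.1% of all genes, and TTCGAA was in 11.1%, 4.76% and 1.80%. A match is a description of the letters and not a bound site.

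Clustering the 280 nuclei on their own gave 10 sub-clusters, described by their leading genes. Sub-cluster 1 (40 nuclei) was led by Top2a, Mki67 and Kif11 and kept a mean Dcx of 3.55. Sub-cluster 6 (30 nuclei) was led by Egfr and Cdk6, with a mean Egfr of 9.77, Top2a of 6.77 and Dcx of 0.600. Sub-cluster 2 (40 nuclei) was led by St18 and Dcc, a netrin receptor gene, and had a Top2a mean of 1.60.

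A further 3 sub-clusters had Dcx means of 2.87 to 4.28 and Top2a means of at most 0.172. Sub-cluster 3 (32 nuclei) was led by C79798, Pbx3, Foxp2 and Tshz1, and its Prokr2 mean was 0.750 against 0.0605 in the rest of the 280. Sub-cluster 4 (31 nuclei) was led by Parm1, Synpr and Kirrel3, and sub-cluster 7 (29 nuclei) by Dach2, Galnt14 and Erbb4. These 6 sub-clusters, each with a mean Dcx or Top2a of at least 2, held 202 nuclei (72.1%). That limit was chosen after the sub-clusters were seen.

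The other 78 nuclei met the rule but lay in sub-clusters under that limit, with mean Dcx of 0.867 to 1.57 and mean Top2a of at most 0.611. Sub-cluster 5 (30 nuclei, led by Sema3c and Csmd1) had a Dlx1 mean of 0. Sub-cluster 8 (18 nuclei) was led by Thsd7b and Vwc2l and also by Nos1, an interneuron marker. Sub-cluster 10 (15 nuclei) was led by Gpc5 and Mertk, with a mean Slc1a2, the astrocyte glutamate transporter, of 44.4, and also had a mean Egfr of 4.73, Dlx6os1 of 5.53 and Meis2 of 14.9. Sub-cluster 9 (15 nuclei, led by Dgkg, Cpa6 and Ano1) came entirely from heterozygous library 3, with a Sox11 mean of 0.733 and an Igfbpl1 mean of 3.60. None of their leading genes was a neuroblast marker on the list used, which also held for sub-clusters 1, 2, 3, 4 and 6. Egfr, a precursor gene, was high in sub-cluster 10. The 78 nuclei were set apart by the limit on mean Dcx or Top2a alone. They made up 22.9%, 13.0% and 22.4% of the 280 in wild-type libraries 1 to 3 and 30.4%, 26.6% and 37.2% in heterozygous libraries 1 to 3. The median number of detected genes was 3878, 3570 and 3389 in sub-clusters 8, 9 and 10, and 1909 to 2711 in the other sub-clusters.

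**Figure D2:**
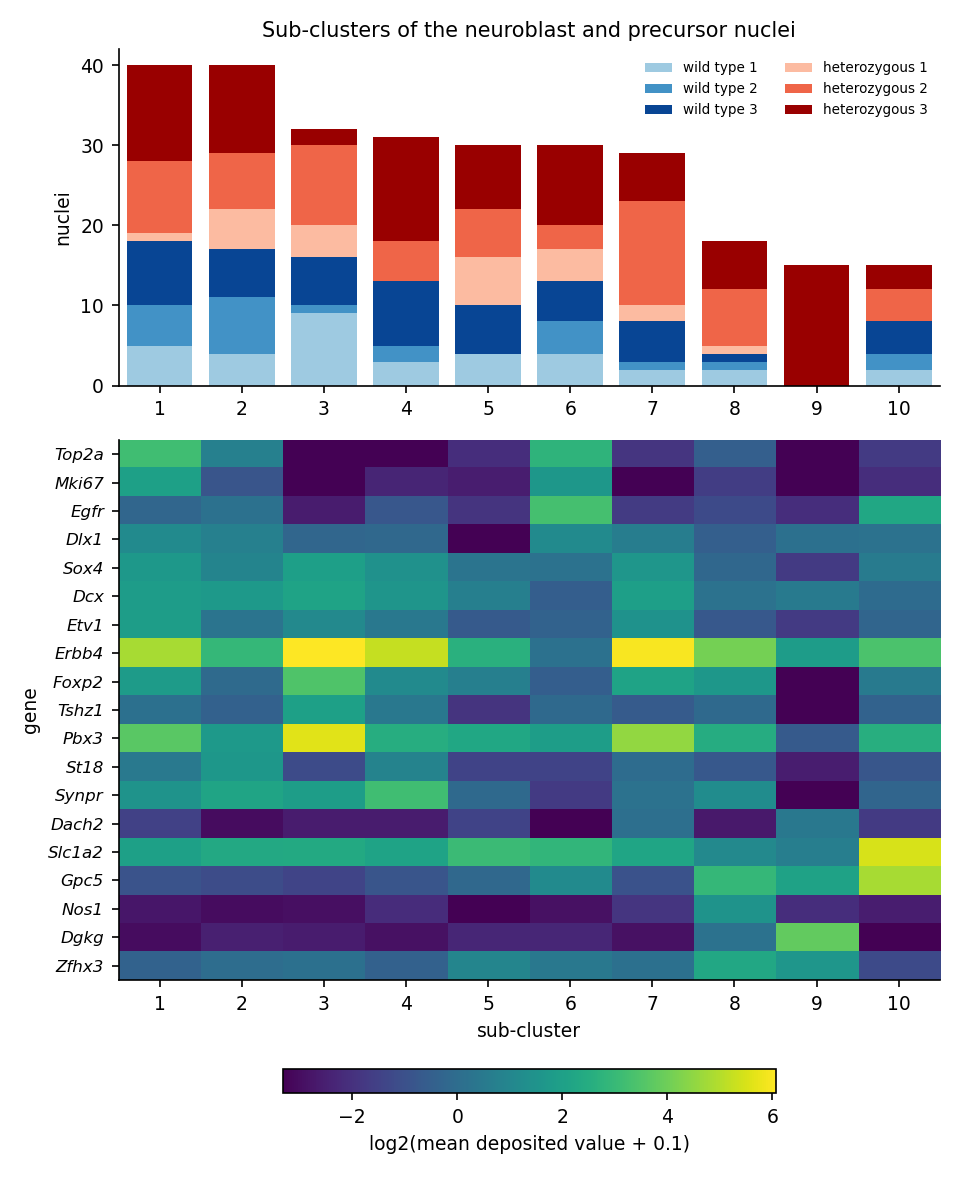
Upper panel: number of nuclei in each of the 10 sub-clusters, stacked by library. Lower panel: mean level of selected genes in each sub-cluster, as log2 of the mean deposited value plus 0.1. Sub-cluster 9 holds nuclei of heterozygous library 3 alone, and Slc1a2 is brightest in sub-cluster 10.

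The first genotype question was whether these nuclei were more or less frequent in Celsr3 heterozygous striatum. They made up 0.453%, 0.291% and 0.606% of the nuclei in wild-type libraries 1 to 3 (35, 23 and 49 nuclei) and 0.291%, 0.765% and 0.969% in heterozygous libraries 1 to 3 (23, 64 and 86 nuclei). The groups overlapped, at 0.450% ± 0.157 and 0.675% ± 0.348 (SD, n = 3 each; two-sided exact permutation p = 0.5, adjusted over 4 shares 0.5). With 3 libraries against 3 this test cannot give a p below 0.1. Cells of the ventricle wall and its plexus also varied between libraries: ependymal nuclei numbered 33, 15 and 13 in wild type and 10, 42 and 49 in heterozygous libraries, and choroid plexus nuclei 49, 55 and 0, and 1, 0 and 114. The part of the dissection in the share was not tested. The group difference in this share, 0.225 percentage points, was 0.0783 without heterozygous library 3 and 0.417 without heterozygous library 1. Without sub-cluster 9 the share in heterozygous library 3 was 0.800%.

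**Figure D3:**
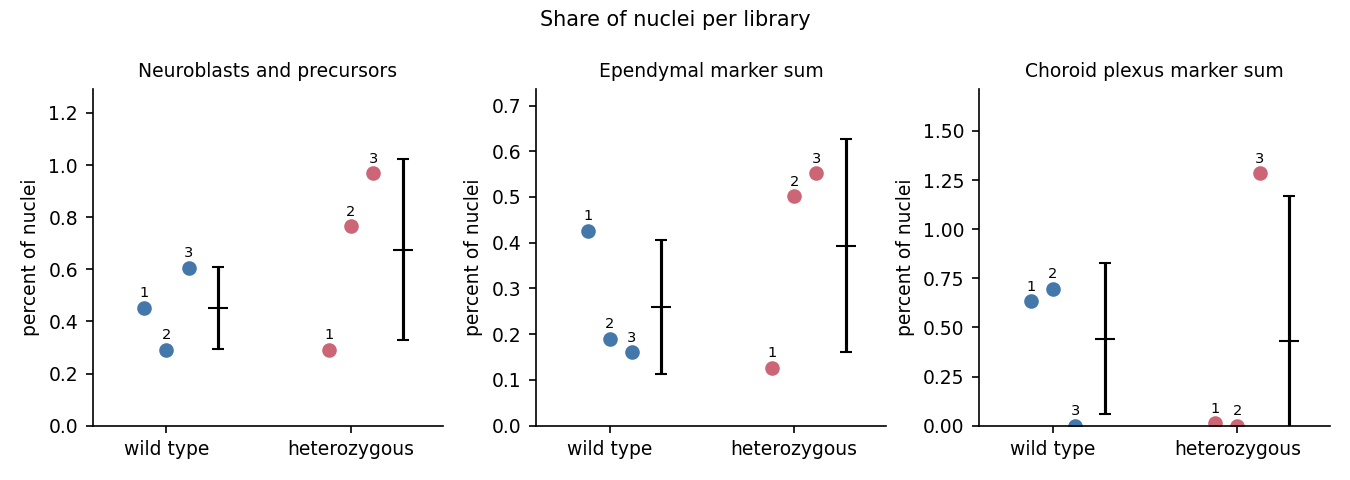
Share of all nuclei per library (percent) that met the rule, that reached the ependymal marker sum and that reached the choroid plexus marker sum. Points are libraries with their replicate numbers, bars are means ± SD of 3 libraries, and the 2 genotypes overlap in each panel.

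The 2 states given here overlapped between genotypes under the limits used. Dcx was present in 77.1%, 69.6% and 81.6% of the wild-type and 65.2%, 75.0% and 70.9% of the heterozygous nuclei (two-sided exact permutation p = 0.3). Dividing nuclei were 37.1%, 56.5% and 34.7% in wild type and 39.1%, 29.7% and 30.2% in heterozygous libraries (exact permutation p = 0.3). Wild-type library 2, with 23 nuclei, had the highest share of dividing nuclei, and both tests had a p of 0.4 adjusted over the 4 shares. The group difference in the dividing share, -9.77 percentage points, was -2.90 without wild-type library 2. Under 2 other limits the dividing share no longer overlapped, each with an exact permutation p of 0.1, the smallest this test allows. With a mitosis sum above the limit by 1 it was 34.3%, 56.5% and 34.7% in wild-type and 30.4%, 26.6% and 29.1% in heterozygous libraries. With a rule sum of 3 it was 29.8%, 41.2% and 29.0%, and 28.6%, 22.0% and 22.7%. That in the Dcx share, -5.73 points, was -2.97 without wild-type library 3, -3.15 without heterozygous library 1 and -9.005 without wild-type library 2.

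**Figure D4:**
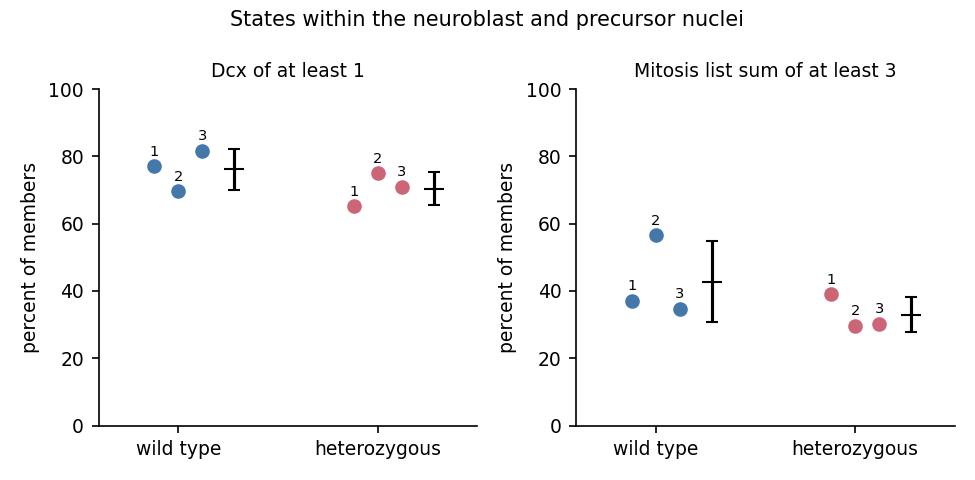
Percent of the neuroblast and precursor nuclei of each library with Dcx and with a mitosis gene sum of at least 3. Points are libraries with replicate numbers, bars are means ± SD of 3 libraries, and the genotypes overlap in each panel.

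Celsr3, the gene named in the genotype labels, averaged 0.171, 0.174 and 0.122 per nucleus in wild-type and 0.261, 0.109 and 0.0581 in heterozygous libraries. It was too low in these nuclei to pass the filter, so it was not tested, and in these nuclei it does not check the genotype labels. In all other nuclei of the same libraries it averaged 0.0743, 0.0999 and 0.108 in wild-type and 0.0611, 0.0689 and 0.0644 in heterozygous libraries, lower in every heterozygous library than in any wild-type one. In the 280 nuclei the groups overlapped, with heterozygous library 1 the highest of all 6. Celsr2 was also under the filter, and Fzd3 was tested with means of 1.08 ± 0.200 and 1.16 ± 0.137 (SD, n = 3; limma adjusted p = 0.937).

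Among 1997 genes tested between genotypes with limma, 1 passed an adjusted p of 0.05 (0.0501%), and 158 had an unadjusted p under 0.05, of which 105 were higher and 53 lower in heterozygous libraries. That split was 62 higher and 53 lower of 1571 genes tested without heterozygous library 3, and 20 higher and 22 lower of 1342 in the 202 nuclei. The filter averaged summed values over all libraries, and heterozygous libraries 2 and 3 held the most nuclei. Genes high in those libraries therefore passed it more readily. With the filter replaced by a value in every library, the split was 380 higher and 170 lower of 9072 genes. That filter also depends on the number of nuclei per library, and the cause of the split was not tested. The called gene was Zfhx3, a large homeobox and zinc finger factor of neuronal differentiation. Its mean was 0.429, 0.609 and 0.469 in wild-type and 1.65, 1.86 and 1.91 in heterozygous libraries. The lowest heterozygous library exceeded the highest wild-type library, with a difference of 1.84 ± 0.229 (SE) on the log2(mean + 0.01) scale (limma, Benjamini-Hochberg adjusted p = 0.0122). Zfhx3 passed the filter through its heterozygous libraries, and would not have passed on its wild-type values alone. The same held for Apbb2 and Prkg1, described below. With a value in every library as the only filter, Zfhx3 was called at a limma adjusted p of 0.00715.

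The Zfhx3 call was lost without the nuclei outside the main sub-clusters, and without most single libraries. Zfhx3 averaged 4.78 in sub-cluster 8, 2.93 in sub-cluster 9 and 0.906 in the 202 nuclei of the 6 sub-clusters above. In those 202 nuclei its means were 0.482, 0.700 and 0.447 against 1.25, 1.23 and 1.13, which still did not overlap, but the limma adjusted p was 0.990 and the unadjusted p 0.00902. The share of nuclei outside these sub-clusters was higher in each heterozygous library than in any wild-type one, as given above; its part in the difference was not tested. Left out singly, every library except wild-type library 2 ended the call, with adjusted p-values of 0.0536 to 0.110. The difference itself was 1.735 to 1.983 (log2) over the 6 fits that each left out 1 library. With a rule sum of 3 it was 1.27 and not called (limma adjusted p = 0.07335).

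Whether the genotype difference in these nuclei differed from that in all other nuclei of the same libraries was tested in a second limma fit, which called 0 of 1997 genes. An unadjusted p under 0.05 was found for 139, of which 60 had a higher and 79 a lower effect in the 280 nuclei; with size-factor scaling this was 89 and 51. For Zfhx3 this difference of effects was 1.74 ± 0.266 (SE) on the log2 scale (limma adjusted p = 0.138, unadjusted p = 6.91e-05). The next genes by p in this fit were Apbb2, an adaptor of the amyloid precursor protein that stood at a mean of 0.354 ± 0.0442 in the wild-type group and 0.917 ± 0.183 in the heterozygous group (SD, n = 3), and Hdgfl3, both with a limma adjusted p of 0.580. Whether Zfhx3 was called depended on how the fit modelled the variance. Of 3 forms run, the adjusted p was 0.0681 with no variance trend, 0.0333 with a trend on the mean level, and 0.138 with limma's default trend. The first and the second were run before the default, which is reported because it is the form that the planned design names.

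The next 4 genes by p were higher in heterozygous libraries and did not pass. Lingo2, a synaptic leucine-rich repeat protein, averaged 2.49, 1.00 and 1.63 in wild-type and 4.43, 4.66 and 8.02 in heterozygous libraries (limma adjusted p = 0.0771). In the 202 nuclei the Lingo2 means were 1.43 ± 0.542 and 1.42 ± 0.125 (SD, n = 3; limma adjusted p = 0.990). Pcdh15, a protocadherin, averaged 0.895 ± 0.0976 and 2.36 ± 0.525 (SD, n = 3; limma adjusted p = 0.0581), and overlapped between genotypes in the 202 nuclei. Lrfn5, a synaptic adhesion gene, averaged 0.915 ± 0.235 and 2.14 ± 0.162, and Prkg1, a cGMP-dependent kinase, 0.639 ± 0.197 and 1.72 ± 0.134 (SD, n = 3; limma adjusted p = 0.0771 for both). The Lrfn5 difference of 1.25 (log2) was 0.57 in the 202 nuclei, where the genotypes overlapped. Prkg1 was among the leading genes of sub-cluster 8, with a mean of 9.0 against 0.763 in the rest of the 280, and that sub-cluster had 2, 1 and 1 nuclei in wild-type and 1, 7 and 6 in heterozygous libraries.

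The 5 genes of smallest p among those lower in heterozygous libraries were Wdr17, Gm26936, Gm16599, Gm6994 and Hdgfl3, with limma adjusted p-values of 0.278 to 0.385. Wdr17 averaged 2.46 ± 0.457 and 1.26 ± 0.333 (SD, n = 3), but in the 202 nuclei it was 0.881 ± 0.448 and 1.11 ± 0.0989, the other direction. Wdr17 was also among the leading genes of sub-cluster 10. Hdgfl3 averaged 2.33 ± 0.103 and 1.50 ± 0.131 over all 280 nuclei and 2.41 ± 0.285 and 1.55 ± 0.318 in the 202, and did not overlap in either.

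**Figure D5:**
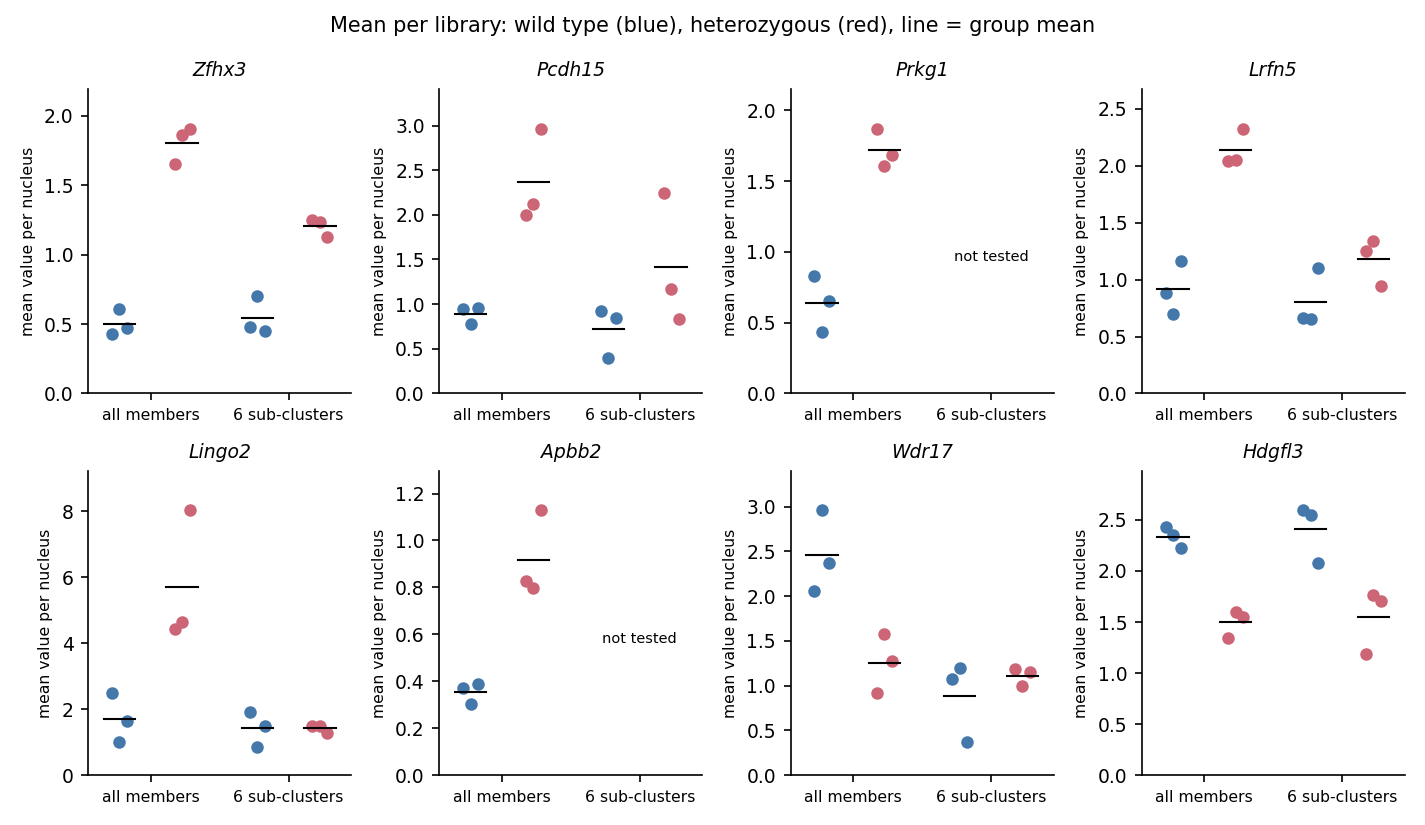
Mean deposited value per nucleus for 8 genes in each library, over all 280 nuclei and over the 202 nuclei of the 6 sub-clusters. Points are libraries and lines are group means; Lingo2 and Wdr17 overlap between genotypes in the 6 sub-clusters, Zfhx3 and Hdgfl3 do not, and Prkg1 and Apbb2 were not tested there.

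Of all tested genes 13.0% did not overlap between genotypes, 7.36% higher and 5.61% lower in heterozygous libraries, and the gene lists are read against these shares. In the neurogenic factor list, 8 of 26 genes were tested and 0 were called by limma (1 had an unadjusted p under 0.05). None of the 16 tested migration genes, 6 mitosis genes or 3 replication genes failed to overlap. In the guidance list, 3 of 18 did not overlap: Unc5c and Epha4 were higher and Erbb4 lower. Erbb4 averaged 35.1, 24.2 and 39.5 in wild-type and 21.3, 22.3 and 18.9 in heterozygous libraries (limma adjusted p = 0.420).

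Of 16 tested chromatin and RNA regulators, 4 did not overlap: Zfhx3 and the remodeller subunit gene Smarca4 were higher, and Auts2 and the remodeller gene Chd7 lower. As given above, Zfhx3 passed the filter through its heterozygous libraries, so its place in this count is no support. Chd7 averaged 2.86 ± 0.0860 and 2.25 ± 0.194 (SD, n = 3; limma adjusted p = 0.648). Of 14 tested genes of neuronal maturation, Cntnap2 and Syt1 were higher without overlap, with Cntnap2 at 3.52 ± 1.38 and 7.78 ± 1.07 (SD, n = 3; limma adjusted p = 0.135). In the 202 nuclei Cntnap2 overlapped, at 3.01 ± 0.832 and 4.09 ± 1.69 (SD, n = 3; limma adjusted p = 0.990), and its mean was 19.9 in sub-cluster 5 and 17.3 in sub-cluster 8 against 3.37 in the 202. Of 5 tested stem and precursor genes, Slc1a3 was lower without overlap, as was Slc1a2 among the astrocyte markers, both with limma adjusted p-values of 0.404 to 0.512. Outside the named-gene rule, Unc5c, Epha4, Smarca4, Chd7, Syt1 and Slc1a2 were named after their values were seen. The rule also did not cover other genes described above, such as Sp8, Eomes, St8sia2, Stmn2, Slit1, Prokr2, Vangl2 and Cdk6. The median log2 difference was -0.15 in the neurogenic factors, 0.04 in the migration list, 0.17 in the guidance list and -0.64 in the stem and precursor list, against -0.000388 over all tested genes. The stem and precursor list summed to 19.9 to 26.7 in wild-type and 16.5 to 19.2 in heterozygous libraries. The astrocyte and stem cell markers summed to 9.97 to 13.5 and 7.34 to 9.27. Slc1a3 and Gfap are on both lists. Slc1a2, an astrocyte marker, averaged 44.4 in sub-cluster 10, with 2, 2 and 4 wild-type and 0, 4 and 3 heterozygous nuclei. The part of sub-cluster 10 in these sums was not tested. Sums were formed for 9 gene lists and 17 marker lists. The sums of all other lists overlapped, and no list sum was tested.

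Egfr averaged 2.34, 3.52 and 1.74 in wild-type and 2.61, 1.05 and 1.12 in heterozygous libraries, and the groups overlapped (limma adjusted p = 0.648). Slc16a4 and Tnfrsf19 had summed values under the filter and were not tested. Their wild-type means were 0.885 ± 0.131 and 0.468 ± 0.126, and their heterozygous means 0.422 ± 0.0236 and 0.226 ± 0.0834 (SD, n = 3). Neither gene overlapped between genotypes, where 13.0% of all tested genes did not. Both were named by an earlier analysis of these data, so this tests nothing.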

How the data were processed

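Single-nucleus RNA libraries of striatum were compared, 3 wild-type and 3 Celsr3 heterozygous. The submitters' processing notes name Cell Ranger, Seurat 4.1 and the builds mm10 and GRCm38; the normalization and the filters on nuclei are not given in the sources used here. The values deposited are a score, here read as molecule numbers that had been corrected for depth and rounded: totals per nucleus varied by 10.7% (CV), and in 10.0% of nuclei 10 or more low genes stood at 2 or 3 and none at 1. Count models were therefore not used, and counting intervals were not computed.

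The mean per nucleus and library was tested as log2(mean + 0.01) with limma 3.58.1 (R 4.3.3, trended empirical Bayes), heterozygous minus wild type, no covariate. This scale understates changes of low genes. Genes needed a mean of at least 0.02 and a summed value averaging at least 30 per library. P-values were Benjamini-Hochberg adjusted over all genes tested, and an adjusted p under 0.05 was called. Shares were compared by two-sided exact permutation over libraries. On simulated data with 1997 genes for the comparison in these nuclei, 200 genes were changed at once, with normal spread on the log scale. Of these, 49.5% of 2-fold and 93.0% of 4-fold changes were recovered, with 4 and 8 false calls. With fewer changed genes the adjusted limit is stricter, so these shares do not give the recovery of a single changed gene.

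Sub-clusters came from 1500 variable genes, 15 principal components, 12 neighbours and Leiden clustering at resolution 1.0 (leidenalg 0.10.2), after an exploratory clustering at another resolution. Scrublet was run per library in scanpy 1.11.5; doublets were left in, apart from an alternative. Members, lists and the sub-cluster limit were chosen with earlier results of these data known. Named genes were the planar polarity genes Celsr1 to Celsr3 and Fzd3, the rule genes and Dcx, the 4 highest of each of 9 lists, the 20 largest ratios, Tnfrsf19, Egfr and Slc16a4, the 5 genes of smallest p in each direction and the 3 of smallest p in the difference of effects. Of the 4 shares tested, 1, and the results for some listed genes, are not reported here.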

Additional observations from a re-analysis of the deposited data

How the results depend on the processing

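The count of 1 called gene became 15 with a rule sum of 3, 3 without the filter on low values and 2 with array weights. With a sum of 3 Zfhx3 was not among the 15 (adjusted p = 0.07335), while Lingo2 and Cntnap2 were. The count became 0 with a rule sum of 6, with Rgs9 + Pde10a of at most 2, with the 6 sub-clusters alone, and with Dcx-positive nuclei alone, and was 0 to 1 when single libraries were left out. With a sum of 6 and with Rgs9 + Pde10a of at most 2, Zfhx3 did not pass the filter and was not tested. The genes tested there numbered 1041 and 805. With cycling nuclei left out 1 gene, Lingo2, was called. Zfhx3 was not (adjusted p = 0.144), although its difference was 2.716 (log2) against 1.839; it was 1.689 in Dcx-positive nuclei. The replicate block gave 0, with a limma adjusted p of 0.0831 for Zfhx3. Deviations of same-numbered libraries had correlations of -0.0423, -0.0748 and -0.0289, and those of differently numbered libraries -0.0184 to 0.0586. From 23 to 86 nuclei per library, these values cannot show whether the numbers pair the libraries.

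At an unadjusted p of 0.05 the split was 22 higher and 18 lower with a rule sum of 6, and 17 and 14 with Rgs9 + Pde10a of at most 2. The difference of effects called 0 genes, and 1 where the variance was trended on the mean level. That form, the form without a trend and the 6 sub-clusters were alternatives chosen after seeing the data.

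The heterozygous minus wild-type difference in the Dcx share turned positive with a rule sum of 3 (0.684 percentage points) and with Rgs9 + Pde10a of at most 2 (3.52). The difference in the share of nuclei meeting the rule was 0.225 points, 0.368 with a rule sum of 3, 0.0834 with a sum of 6, 0.05665 with Rgs9 + Pde10a of at most 2 and 0.1002 in the 6 sub-clusters. The difference in the dividing share was -9.77 points, -0.135 with a sum of 6, -3.33 with Rgs9 + Pde10a of at most 2, -5.17 in the 6 sub-clusters, -13.1 with the state limit raised, -8.90 with a sum of 3 and -13.8 to -2.90 without single libraries. The Celsr3 difference (log2) was -0.335, and 1.202 with Rgs9 + Pde10a of at most 2, 0.18 with a sum of 6, 0.017 in the 6 sub-clusters and -0.864 to 0.132 without single libraries. The Wdr17 difference turned from -0.98 to 0.50 in the 6 sub-clusters. Other log2 differences that changed sign came from genes that were not called. Igfbpl1 gave 0.0041 with Rgs9 + Pde10a of at most 2, 0.15 in the 6 sub-clusters and 0.0089 in Dcx-positive nuclei. Dcx gave 0.018 and 0.01 in the first and the last of these. Top2a gave 0.18 with a sum of 6, 0.21 with Rgs9 + Pde10a of at most 2, 0.17 in the 6 sub-clusters and 0.038 in Dcx-positive nuclei. With a sum of 6, Egfr gave 0.095, Auts2 0.066 and Syt1 -0.080. In the 6 sub-clusters Syt1 gave -0.021, and with cycling nuclei left out Epha4 gave -0.090. Without single libraries the ranges were -0.040 to 0.24 for Sox11, -0.25 to 0.079 for Igfbpl1, -0.17 to 0.010 for Dcx and -0.38 to 0.23 for Top2a. The cause of these changes was not tested. The raw depth is unknown, and 23 nuclei in the smallest libraries limit the precision. Under the alternatives the smallest library held fewer. It had 9 nuclei with Rgs9 + Pde10a of at most 2 and 13 with a sum of 6. It had 16 in the 6 sub-clusters, 15 with Dcx and 10 with cycling nuclei left out.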
